A study of Mus musculus with 4 samples.

Results

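The serpin genes of mouse clades a to i were followed in RNA sequencing libraries of mouse colonic mucosa. A gene counted as a member when its symbol in the count file of wild-type (WT) replicate 1 began with Serpin, a clade letter from a to i and a number, and its identifier was then looked up in the other 3 count files. This gave 49 of the 19308 genes that all 4 files list: 18 in clade a, 20 in clade b, 1 each in clades c, d, g and h, 3 in clade e, and 2 each in clades f and i. The tested group was 2 libraries from Itch knockout (KO) mice, which lack the ubiquitin ligase ITCH, and the comparison group was 2 libraries from C57BL/6 WT mice. The labels give all 4 samples a state of inflammation, whereas the protocol describes only the mucosa of Itch-/- mice as inflamed. The labels do not state age, sex or how many animals a library came from. The p-values therefore measure only the spread between these libraries, which may be technical.

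Most serpins are inhibitors of serine proteases. A flexible loop of the protein is offered as bait, and when the protease cuts it the serpin changes shape and traps the protease in a covalent complex. Clade a holds secreted plasma inhibitors such as antitrypsin and antichymotrypsin, most of them made by liver, and clade b holds inhibitors that stay largely inside the cell and protect it from proteases of its own granules. The smaller clades control clotting, plasminogen activation and complement, and some members, such as the collagen chaperone encoded by Serpinh1, inhibit no protease. Mice carry many copies where humans have 1 gene in several of these families, among them the Serpina1, Serpina3 and Serpinb6 genes.

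The Serpina3 group on chromosome 12 stood higher in both Itch KO libraries, led by Serpina3f and Serpina3g. Antitrypsin genes (Serpina1b, Serpina1d, Serpina1e) and Serpind1 were also higher in both, at low levels, and Serpina9 was lower in both. These antitrypsin genes, Serpind1 and Serpina9 passed the filter on low counts only through the group in which they were higher. That partly fixed their direction. The abundant members Serpinb1a, Serpinb5, Serpinb6a, Serping1 and Serpinh1 overlapped between the groups. Serpini2 was seen almost only in Itch KO replicate 2, and Serpinb3a, Serpinb11 and Serpinb12 almost only in WT replicate 1. The planned test, edgeR's quasi-likelihood test with Benjamini-Hochberg adjustment over all genes, called no member.

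Itch checked the labels: it stood at 11.9 and 13.4 CPM (counts scaled to library size, with TMM factors) in Itch KO libraries, against 204 and 183 CPM in WT libraries. Total counts over the shared genes ran from 8181193 to 12199709 per library. Markers of colonic absorptive and goblet cells were above 0 in all 4 libraries. Each of 3 libraries also held markers of another tissue. The 12 pancreatic acinar markers summed to 965 CPM in Itch KO replicate 2, against 12.5 in Itch KO replicate 1 and 9.92 and 9.37 in WT replicates 1 and 2. Pnlip, the pancreatic lipase gene, had 1086 counts in Itch KO replicate 2 and 0 in the other 3 libraries. The 10 squamous epithelial markers summed to 893 CPM in WT replicate 1, against 70.7 and 81.7 in Itch KO libraries and 27.5 in WT replicate 2. The 10 ileal and proximal enterocyte markers summed to 552 CPM in WT replicate 2, against 90.9 and 123 in Itch KO libraries and 150.3 in WT replicate 1. The acinar and ileal lists were drawn up after these libraries had been examined.

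The sequences that go with the leading result are the stretches upstream of 4 Serpina3 genes on chromosome 12. They are Serpina3f, Serpina3g and Serpina3i, the Serpina3 genes that DESeq2 called in its main setting, and Serpina3n, which was already abundant in WT mucosa. In some of its other settings DESeq2 also called Serpina3m and Serpina3n. Each line gives the 250 bases before the RefSeq start site (GRCm38.p6, plus strand, 5′ to 3′), and capitals mark the gamma-activated site, the motif TTCNNNGAA that STAT factors are known to bind.
Serpina3f, chr12:104214294-104214543: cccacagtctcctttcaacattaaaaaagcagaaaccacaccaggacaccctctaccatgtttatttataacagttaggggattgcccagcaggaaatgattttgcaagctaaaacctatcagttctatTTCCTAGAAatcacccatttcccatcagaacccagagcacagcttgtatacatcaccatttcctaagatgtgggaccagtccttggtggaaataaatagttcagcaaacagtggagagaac
Serpina3g, chr12:104235897-104236146: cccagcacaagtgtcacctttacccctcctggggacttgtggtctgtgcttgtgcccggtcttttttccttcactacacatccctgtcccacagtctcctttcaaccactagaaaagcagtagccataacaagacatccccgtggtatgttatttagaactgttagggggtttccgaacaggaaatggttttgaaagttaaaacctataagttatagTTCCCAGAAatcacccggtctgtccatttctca
Serpina3i, chr12:104262872-104263121: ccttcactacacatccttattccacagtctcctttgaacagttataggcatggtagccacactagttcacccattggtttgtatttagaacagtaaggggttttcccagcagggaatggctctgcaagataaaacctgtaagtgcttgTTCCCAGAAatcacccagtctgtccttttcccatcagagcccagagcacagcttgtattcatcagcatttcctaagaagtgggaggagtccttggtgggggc
Serpina3n, chr12:104406458-104406707: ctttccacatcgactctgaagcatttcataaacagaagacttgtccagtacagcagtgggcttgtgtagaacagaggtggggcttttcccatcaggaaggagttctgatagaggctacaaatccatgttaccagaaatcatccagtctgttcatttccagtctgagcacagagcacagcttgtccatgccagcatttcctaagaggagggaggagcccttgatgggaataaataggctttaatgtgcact

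The marked motif began at -121 in Serpina3f, at -33 in Serpina3g and at -102 in Serpina3i, counted from the start site, and the window of Serpina3n held no match to these letters. Both strands were searched, and none of the other motifs searched overlapped the marked one. Windows of 250 bases with TTCNNNGAA made up 7.02% of all 32851 RefSeq windows. Of the 49 members 41 had a window, and 5 of these held the motif, the other two being Serpina11 and Serpinb6a. The other motifs searched were the interferon-stimulated response element (2 of the 41 member windows, 2.98% of all windows), TGANTCA (AP-1, 10 of 41, 6.75% of all), TTGCNNAA (C/EBP, 9 of 41, 9.56% of all) and TATAAA (11 of 41, 12.4% of all). The window of Serpina3f also held 2 TTGCNNAA matches and 1 TATAAA match, and those of Serpina3g, Serpina3i and Serpina3n held none of these other motifs. A match is a description of the letters and not of binding. In global alignments of these windows, Serpina3f and Serpina3i were 64.7% identical, Serpina3i and Serpina3n 63.1%, and Serpina3f and Serpina3g 39.5%. The RefSeq start site of Serpina3g lay 98 bases upstream of its GENCODE start, against 0 for Serpina3f and Serpina3i. Its window was therefore placed differently, so its motif position and its identity with the others depend on the start site used.

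Of the 49 members 29 passed the filter on low counts (edgeR's filterByExpr with a minimum count of 10) and entered the test. The filter keeps genes that reach the minimum in 2 libraries, so counts over these 29 describe them and not the whole family. Serpina1b, Serpina1d, Serpina1e and Serpind1 reached it in the Itch KO libraries alone and Serpina9 in the WT libraries alone, so for these 5 the filter partly fixed the direction. edgeR called 0 of the 29 at an adjusted p below 0.05, as it called 0 of all 16956 genes tested (0.00% in either direction). At an unadjusted p below 0.05 there were 10 members higher and 2 lower in Itch KO mucosa, where the background was 10.2% of all tested genes higher and 9.52% lower. limma voom called none. DESeq2, the alternative tool, called 8 members higher and 1 lower, beside a background of 5.24% and 4.76% of all tested genes. In 16 of the 29 both Itch KO libraries stood above both WT libraries, and in 2 both stood below, where the background was 30.0% and 26.0% of tested genes. The median log2 fold change of the 29 was 0.93, against 0.01 over all tested genes. Without Itch KO replicate 2, the library with acinar markers, DESeq2 called fewer members, and its calls over all genes fell as well. The same held, less strongly, without WT replicate 1. The fall in member calls is therefore not particular to the serpins. Serpina3f and Serpina3g were the members it called in all 9 of its settings.

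**Figure D1:**
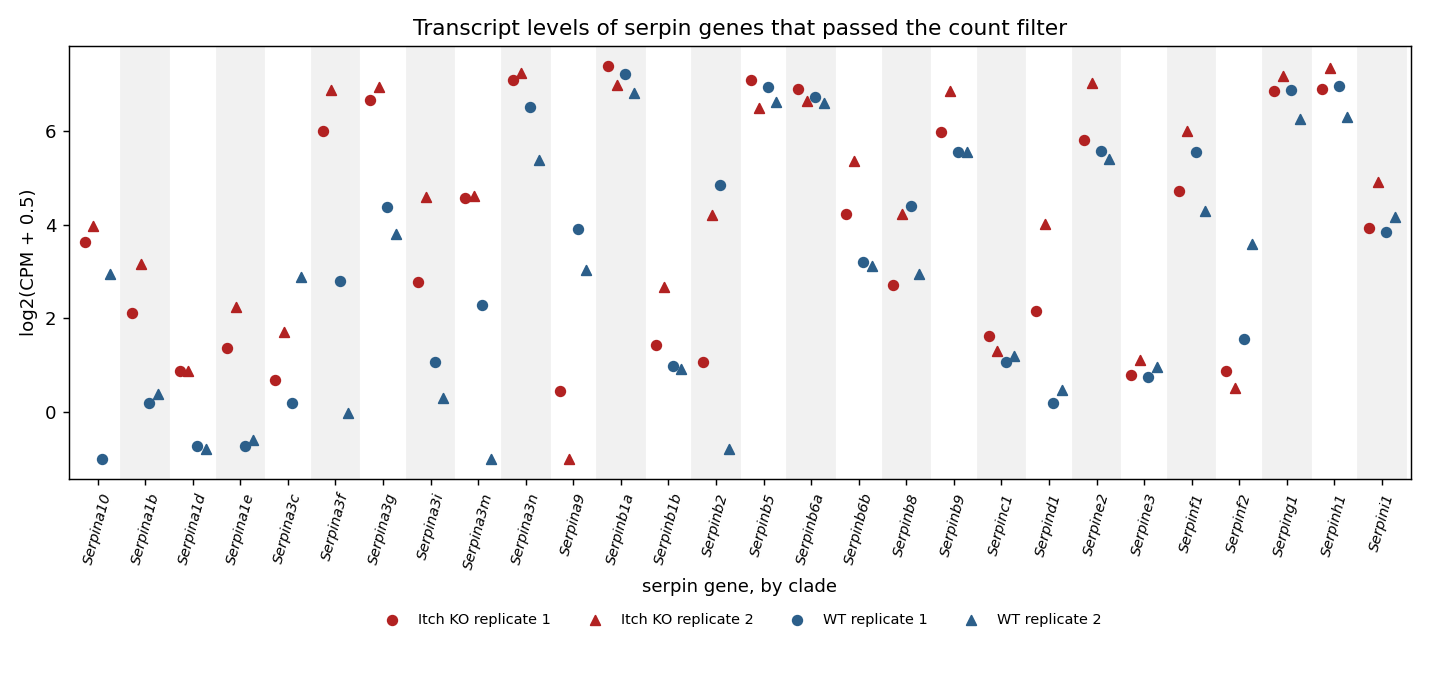
Transcript levels of the tested serpin genes, all but 1 of the 29, as log2(CPM + 0.5) on the y axis, with genes on the x axis ordered by clade and 4 points per gene (Itch KO red, WT blue, circles replicate 1 and triangles replicate 2). The red points of Serpina3f, Serpina3g, Serpina3i and Serpina3m lie above the blue ones, those of Serpina9 lie below, and those of Serpinb1a, Serpinb5 and Serpinb6a are mixed with them.

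The Serpina3 genes descend from the family of human SERPINA3, antichymotrypsin, an acute-phase inhibitor of cathepsin G and mast cell chymase. The 9 listed Serpina3 genes together held 328 and 439 CPM in Itch KO libraries, against 131 and 62.3 CPM in WT libraries, a ratio of the group means of 3.97. Serpina3n, a secreted member that inhibits granzyme B, was the most abundant, at 134 and 149.6 CPM in Itch KO libraries, against 89.5 and 40.7 CPM in WT libraries. Both Itch KO libraries were above both WT libraries, and the WT libraries differed more between themselves than the Itch KO libraries did. Its log2 fold change was 1.12 (SE 0.40, edgeR adjusted p = 0.245), or 1.82 without WT replicate 1 and 0.66 without WT replicate 2.

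Serpina3g, an inhibitor inside lymphoid and myeloid cells that is known to protect them from lysosomal cathepsins, was at 99.9 and 121 CPM in Itch KO libraries, against 20.3 and 13.4 CPM in WT libraries. Its replicates were close together in both groups and the groups were far apart, with means of 110.4 ± 14.9 and 16.8 ± 4.88 CPM (SD, n = 2 each). On the log2 scale the difference was 2.72 (SE 0.27), and the edgeR quasi-likelihood p of 0.000382 became 0.123 after Benjamini-Hochberg adjustment, while the DESeq2 adjusted p was 1.44e-12. Without Itch KO replicate 2 the log2 fold change was 2.58, and without WT replicate 1 it was 3.07. Of the 29 members it had the smallest edgeR p.

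Serpina3f, its neighbour, was at 62.9 and 117 CPM in Itch KO libraries, against 6.40 and 0.489 CPM in WT libraries. Its log2 fold change was the largest of the 29, at 4.74 (SE 1.18, edgeR adjusted p = 0.167, DESeq2 adjusted p = 1.5e-05). WT replicate 2 held 6 counts and WT replicate 1 60 counts, so the size of the fold change depends on which WT library is used: without WT replicate 1 the log2 fold change was 7.51, and without WT replicate 2 it was 3.81. Serpina3i stood at 6.39 and 23.4 CPM in Itch KO libraries, against 1.60 and 0.733 CPM in WT libraries (log2 fold change 3.68, SE 0.93, edgeR adjusted p = 0.171). Its Itch KO libraries differed several-fold, and without Itch KO replicate 2 the log2 fold change was 2.46. DESeq2 called it (adjusted p = 0.0036), but not without Itch KO replicate 2 or without WT replicate 2.

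Serpina3m had nearly equal levels in the Itch KO libraries, 23.2 and 24.0 CPM, against 4.37 and 0 CPM in WT libraries. Its groups did not overlap, but its WT libraries ran from 0 to 41 counts, and edgeR gave a log2 fold change of 3.45 with a standard error of 1.75 (adjusted p = 0.348), which was 2.42 without WT replicate 2. The annotated gene begins at the same base as Serpina3k, so the counts of these genes may be split between them. Serpina3c departed from the group, with 1.11 and 2.79 CPM in Itch KO libraries, against 0.640 and 6.85 CPM in WT libraries, and its highest value was in WT replicate 2, the library with ileal markers. The remaining Serpina3 genes did not pass the filter: Serpina3k had 7 and 11 counts in Itch KO libraries, against 0 and 1 in WT libraries, Serpina3b at most 8 in any library, and Serpina3j 66 counts in WT replicate 1 and at most 1 elsewhere.

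Serpina3 genes resemble each other, and that limits how firmly their counts can be assigned. Of the 50-base stretches in the transcripts of Serpina3g, 15.5% also occur in transcripts of other genes, and the share was 15.9% for Serpina3i, 10.6% for Serpina3f, 19.1% for Serpina3m and 6.90% for Serpina3n. Over all members 13 exceeded 10% and 15 shared no such stretch. Values of single Serpina3 genes are therefore less certain than their sum.

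**Figure D2:**
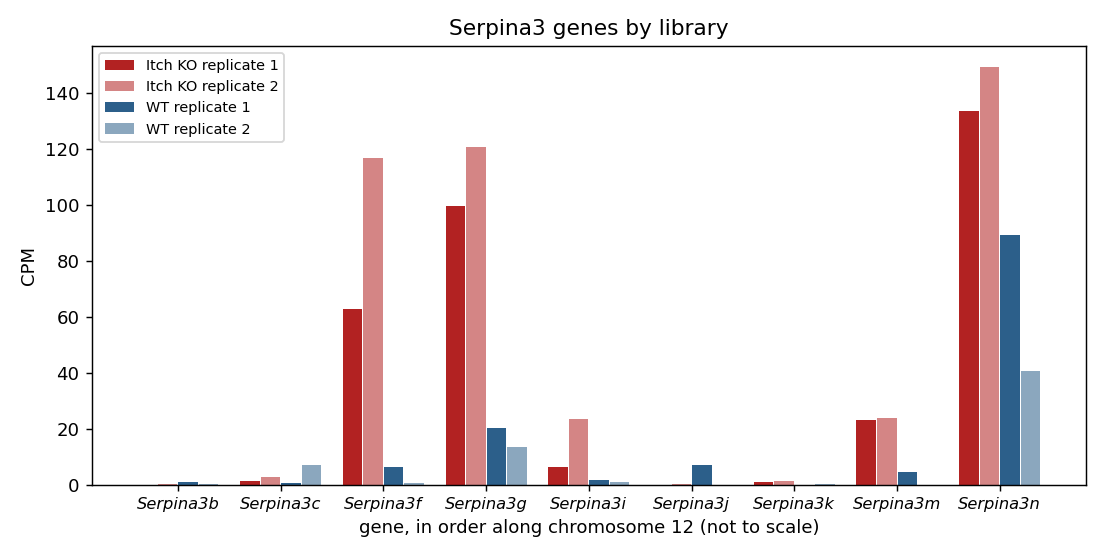
CPM of the 9 Serpina3 genes in each library, in their order along chromosome 12 and with spacing not to scale (Itch KO red and pale red, WT blue and pale blue; bars start at 0). Serpina3f, Serpina3g, Serpina3i, Serpina3m and Serpina3n have both red bars above both blue bars, and Serpina3c and Serpina3j have their tallest bar in 1 WT library.

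The sums of several immune cell marker lists were also higher in both Itch KO libraries. The 10 neutrophil markers summed to 429 and 767 CPM in Itch KO libraries, against 200.4 and 21.1 CPM in WT libraries, with 8 of the 9 tested markers higher in both Itch KO libraries, beside 30.0% of all tested genes. The exception was Ltf, the lactoferrin gene, at 58.1 and 82.9 CPM in Itch KO libraries, against 126 and 2.28 CPM in WT libraries. Camp passed the filter on low counts through the Itch KO libraries alone, which partly fixed its direction. The 6 macrophage markers summed to 551 and 684 CPM in Itch KO libraries, against 392 and 260.4 CPM in WT libraries. Of the 6, 5 were higher in both Itch KO libraries, beside the same 30.0%. Mrc1 overlapped, at 68.7 and 100.2 CPM in Itch KO libraries, against 80.4 and 39.6 CPM in WT libraries. The 5 B and plasma cell markers summed to 564 and 569 CPM, against 215 and 191 CPM. Sdc1 was the largest part of that sum in every library, at 198 and 201 CPM, against 187 and 172 CPM. The other listed genes were above 72 CPM in each Itch KO library and at or below 8.43 CPM in each WT library. The part of these immune cells in the Serpina3 result was not tested, and in bulk tissue more cells of a type and more RNA per cell cannot be told apart.

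Antitrypsin, the product of the Serpina1 genes, is the main plasma inhibitor of neutrophil elastase. Serpina1b, Serpina1d and Serpina1e passed the filter with small counts. Serpina1b was at 3.81 and 8.47 CPM in Itch KO libraries, against 0.640 and 0.815 CPM in WT libraries. Serpina1e was at 2.09 and 4.23 CPM, against 0.107 and 0.163 CPM, and Serpina1d at 1.35 and 1.34 CPM, against 0.107 and 0.0815 CPM. All 3 had both Itch KO libraries above both WT libraries, an order that their passing the filter through the Itch KO libraries partly fixed. Their log2 fold changes were 3.05 (SE 0.68), 4.41 (SE 0.76) and 3.69 (SE 0.64), with edgeR adjusted p of 0.147, 0.128 and 0.128. DESeq2 gave adjusted p of 0.0447 for Serpina1b and 0.0484 for Serpina1e, neither of them called once any 1 library was left out, and no adjusted p for Serpina1d. In WT libraries Serpina1d and Serpina1e rest on 1 or 2 counts each. Serpina1a had 2 and 16 counts in Itch KO libraries, against 2 and 3 in WT libraries. Between 29.5% and 57.6% of the 50-base stretches of these 4 genes occur in other genes, and the annotated span of Serpina1b includes Serpina1d, so the summed count is the firmer value: 61 and 152 in Itch KO libraries, against 10 and 16 in WT libraries. The 6 hepatocyte markers summed to 97.9 and 62.3 CPM in Itch KO libraries, against 221 and 396 CPM in WT libraries. Apob was the largest part of that sum in every library. Of the 6, 1 was higher and 2 were lower in both Itch KO libraries, beside 30.0% and 26.0% of all tested genes, and 3 overlapped. The higher one was Fgb, a fibrinogen gene, with 18 and 153 counts in Itch KO libraries, against 0 and 0 in WT libraries. Fgb also passed the filter through the Itch KO libraries alone. Alb, the albumin gene, was at or below 2.56 CPM in every library.

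The other members of clade a did not share 1 direction. Serpina10, which encodes the protein Z-dependent inhibitor of coagulation factor X, was at 11.9 and 15.1 CPM in Itch KO libraries, against 0 and 7.25 CPM in WT libraries. Its groups did not overlap, but its WT libraries held 0 and 89 counts, and the log2 fold change of 1.88 had a standard error of 1.76 (edgeR adjusted p = 0.577) and was 0.92 without WT replicate 1. Serpina9, whose human counterpart is known from germinal centre B cells, was lower: 0.860 and 0 CPM in Itch KO libraries, against 14.5 and 7.66 CPM in WT libraries. That is 7 and 0 counts, against 136 and 94, a log2 fold change of -4.70 (SE 1.41, edgeR adjusted p = 0.204, DESeq2 adjusted p = 0.00836). Serpina9 passed the filter through the WT libraries alone, which partly fixed this direction. DESeq2 did not call it without Itch KO replicate 2 or without WT replicate 1. The 7 germinal centre markers listed, a list made after the data were seen, summed to 209 and 320 CPM in Itch KO libraries, against 117 and 144 CPM in WT libraries. Of the 7, 5 were higher in both Itch KO libraries, beside 30.0% of all tested genes. S1pr2 overlapped, and Rgs13 was highest in WT replicate 2, with 21 and 62 counts in Itch KO libraries, against 7 and 429 in WT libraries. Serpina11 had 6 and 17 counts in Itch KO libraries, against 0 and 1 in WT libraries, Serpina12, or vaspin, had 8 and 13, against 4 and 0, and Serpina7, the thyroxine-binding globulin gene, had at most 3 counts in any library.

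Clade b lies in 2 clusters of 10 members each, on chromosomes 1 and 13. On chromosome 13, Serpinb1a, an inhibitor of neutrophil elastase and cathepsin G, was at 166 and 125 CPM in Itch KO libraries, against 147 and 111 CPM in WT libraries. Serpinb6a, which inhibits cathepsin G and related proteases, was at 118 and 97.9 CPM, against 105 and 95.9 CPM. Neither separated the groups, and the log2 fold changes were 0.18 (SE 0.23) and 0.11 (SE 0.15). Their relatives behaved otherwise: Serpinb6b was at 18.1 and 40.3 CPM in Itch KO libraries, against 8.75 and 8.15 CPM in WT libraries (log2 fold change 1.79, SE 0.51, edgeR adjusted p = 0.191, DESeq2 adjusted p = 0.0302). Serpinb1b was at 2.21 and 5.89 CPM, against 1.49 and 1.39 CPM (log2 fold change 1.49, SE 0.68). In both genes the Itch KO libraries were above the WT libraries and Itch KO replicate 2 was the highest. Without that library the log2 fold changes were 1.105 for Serpinb6b and 0.63 for Serpinb1b, and DESeq2 did not call Serpinb6b without Itch KO replicate 2 or without either WT library.

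Serpinb9, the granzyme B inhibitor that shields cytotoxic lymphocytes and the cells around them, was at 61.9 and 114 CPM in Itch KO libraries, against 46.4 and 46.3 CPM in WT libraries. The WT libraries were nearly equal and the Itch KO libraries were both higher, by very different amounts, so the log2 fold change of 0.93 (SE 0.33, edgeR adjusted p = 0.24) became 0.43 without Itch KO replicate 2. Cytotoxic lymphocyte markers summed to 133 and 207 CPM in Itch KO libraries, against 42.6 and 51.2 CPM in WT libraries. Of the 6, 5 were higher in both Itch KO libraries, beside 30.0% of all tested genes, and Klrk1 overlapped. The part of these cells was not tested. Serpinb9b had 59 counts in Itch KO replicate 2 and at most 9 in any other library. Serpinb1c, with 6 and 3 counts, against 13 and 10, and Serpinb6c, with 1 and 3, against 7 and 4, did not pass the filter, and Serpinb6d and Serpinb6e had 0 counts in every library. A count of 0 allows up to 3 counts, or 0.244 to 0.369 CPM in 1 library, a limit that covers counting error only.

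On chromosome 1, Serpinb5, which encodes maspin, an epithelial serpin with no known protease target, was at 134 and 89.4 CPM in Itch KO libraries, against 122 and 97.5 CPM in WT libraries. It was abundant in every library and overlapped, with a log2 fold change of 0.03 (SE 0.25) that was slightly negative under RLE normalization, in DESeq2 and in limma voom. Serpinb8, an inhibitor of the protein convertase furin, was at 6.02 and 18.1 CPM, against 20.6 and 7.25 CPM, and the groups overlapped. Apart from Serpinb5, the chromosome 1 cluster summed to 8.60 and 36.9 CPM in Itch KO libraries, against 106 CPM in WT replicate 1 and 7.498 CPM in WT replicate 2.

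Of the sum in WT replicate 1, Serpinb2 held 28.3 CPM and Serpinb8 20.6 CPM, and most of the rest came from genes seen almost only in that library. Serpinb3a, a relative of human squamous cell carcinoma antigen, had 0 and 0 counts in Itch KO libraries, against 270 in WT replicate 1 and 0 in WT replicate 2. Serpinb12 had 2 and 2 counts in Itch KO libraries, against 128 and 1, Serpinb11 2 and 0, against 95 and 0, and Serpinb3b 0 and 0, against 26 and 0. Serpinb13, a keratinocyte serpin, had 0 and 0 counts, against 6 and 1. WT replicate 1 was the library with squamous markers: Krt5, a basal keratin, was at 0.860 and 3.10 CPM in Itch KO libraries, against 138 CPM in WT replicate 1 and 0.244 CPM in WT replicate 2. None of these 5 serpins passed the filter, and none exceeded 2 counts in the other 3 libraries. The part of squamous tissue in their counts was not tested. Serpinb2, or plasminogen activator inhibitor 2, was at 1.60 and 17.9 CPM in Itch KO libraries, against 28.3 and 0.0815 CPM in WT libraries. It was high in Itch KO replicate 2 and WT replicate 1 and low in the other two, so its log2 fold change of -0.53 (SE 2.18) became 6.73 without WT replicate 1 and -3.13 without Itch KO replicate 2. Serpinb7 and Serpinb10 had at most 6 counts in any library.

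**Figure D3:**
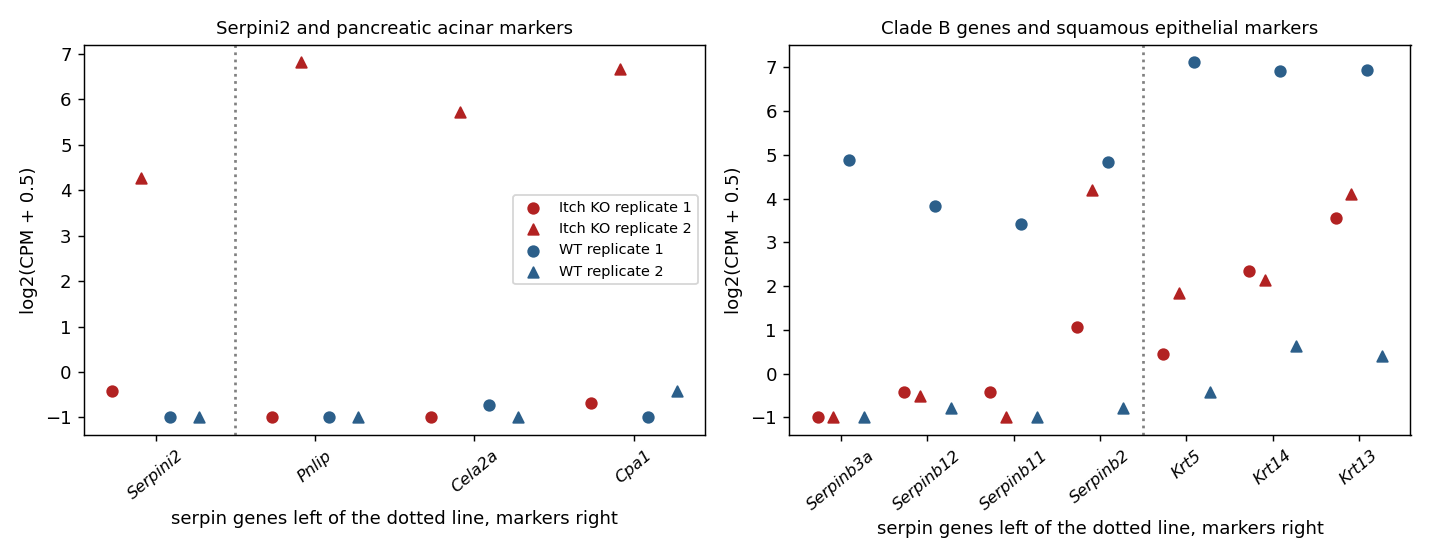
Levels as log2(CPM + 0.5) in the 4 libraries of serpin genes left of the dotted lines and of tissue markers right of them (Itch KO red, WT blue, circles replicate 1 and triangles replicate 2). Serpini2 and the pancreatic acinar markers Pnlip, Cela2a and Cpa1 are high in Itch KO replicate 2 alone, and Serpinb3a, Serpinb12 and Serpinb11 are high in WT replicate 1, where the keratin genes Krt5, Krt14 and Krt13 also peak.

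Serpini2, a serpin of the exocrine pancreas, had 2 and 182 counts in Itch KO libraries, against 0 and 0 in WT libraries. The 182 counts came from Itch KO replicate 2, the library in which Cpa1, the pancreatic carboxypeptidase A1 gene, had 981 counts, against 1 in Itch KO replicate 1 and 0 and 3 in WT libraries. Serpini2 did not pass the filter, and DESeq2 called it with no filter and when Itch KO replicate 1 or either WT library was left out, but not without Itch KO replicate 2. The part of pancreatic tissue in its counts was not tested. Serpini1, which encodes neuroserpin, an inhibitor of tissue plasminogen activator in neurons, was at 14.7 and 29.3 CPM in Itch KO libraries, against 13.8 and 17.3 CPM in WT libraries, and the groups overlapped.

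The serpins of clotting and of plasminogen activation include members of clades c, d and e, and Serpinf2. Serpine2, protease nexin-1, an inhibitor of thrombin and urokinase, was at 55.3 and 129 CPM in Itch KO libraries, against 47.0 and 41.6 CPM in WT libraries, and its log2 fold change of 1.06 (SE 0.44) became 0.33 without Itch KO replicate 2. Serpine3 stayed near 1 CPM, at 1.23 and 1.65 CPM, against 1.17 and 1.47 CPM.

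Serpind1, heparin cofactor II, a thrombin inhibitor, was at 3.93 and 15.7 CPM in Itch KO libraries, against 0.640 and 0.896 CPM in WT libraries. Both Itch KO libraries were above both WT libraries, with 32 and 152 counts, against 6 and 11. Its passing the filter through the Itch KO libraries alone partly fixed that order. Its log2 fold change of 3.65 (SE 0.92, edgeR adjusted p = 0.17, DESeq2 adjusted p = 0.011) became 2.34 without Itch KO replicate 2, and DESeq2 did not call it without Itch KO replicate 2 or without either WT library. Serpinc1, antithrombin, was low throughout, at 2.58 and 1.96 CPM, against 1.60 and 1.79 CPM (log2 fold change 0.41, SE 0.50). Serpinf2, the plasma inhibitor of plasmin, stood lower in both Itch KO libraries, at 1.35 and 0.930 CPM in Itch KO libraries, against 2.45 and 11.5 CPM in WT libraries. Its log2 fold change of -2.61 (SE 0.95, edgeR adjusted p = 0.248) rested on WT replicate 2, the library with ileal markers, and was -1.11 without it.

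Serpinf1, Serping1 and Serpinh1 overlapped between the groups. Serpinf1, which encodes the secreted factor PEDF, was at 25.7 and 63.3 CPM in Itch KO libraries, against 46.0 and 18.9 CPM in WT libraries. Serping1, the inhibitor of the complement proteases C1r and C1s, was at 115 and 143 CPM, against 116 and 75.7 CPM, and Serpinh1, the collagen chaperone HSP47, at 118 and 162 CPM, against 123 and 77.7 CPM. In all 3 the highest value was in Itch KO replicate 2, and the lowest in WT replicate 2. The sum of the 7 fibroblast markers had the same order, with 1261 and 1901 CPM in Itch KO libraries, against 1623 and 996 CPM in WT libraries, and so had the sum of the 10 collagen genes listed as clients of HSP47, with 2123 and 3260 CPM, against 2866 and 1701 CPM. The endothelial marker sum had that order too, with 426 and 748 CPM in Itch KO libraries, against 489 and 339 CPM in WT libraries. Single genes departed from that order. Lum and Pdgfra, fibroblast markers, Tek and Emcn, endothelial markers, and Col6a1, Col6a2 and Col6a3 were lowest in Itch KO replicate 1. Tek and these Col6 genes were highest in WT replicate 1. The part of these cell types and collagens in these values was not tested.

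**Figure D4:**
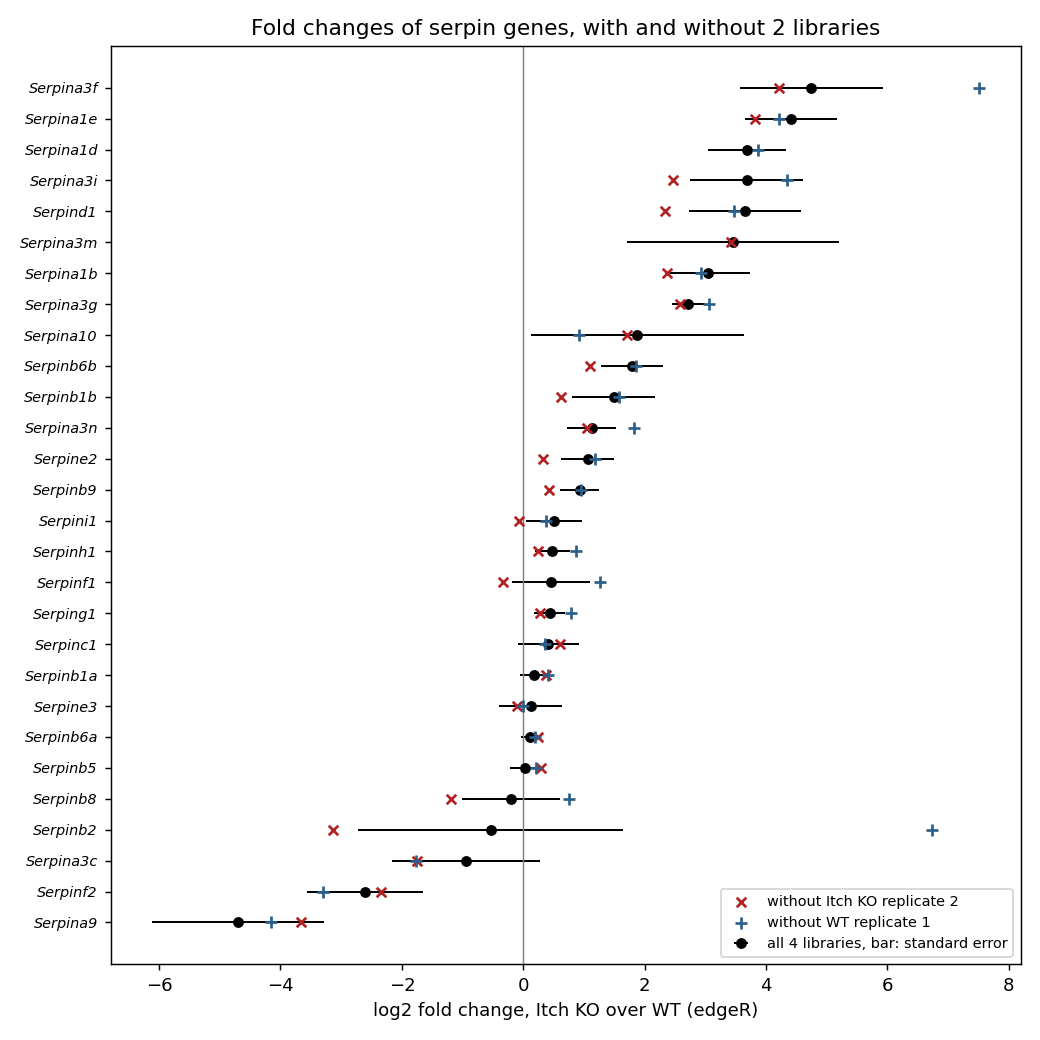
Log2 fold change, Itch KO over WT, of the tested serpin genes, all but 1 of the 29 (black points, bars 1 standard error from edgeR) and the same after leaving out Itch KO replicate 2 (red crosses) or WT replicate 1 (blue plus signs; none is drawn where the remaining WT library has 0 counts, and a gene that did not pass the filter has none). Serpina3g has the narrowest spread among the genes far from 0, and the plus sign of Serpinb2 at 6.73 lies far from its point at -0.53.

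Levels between genes can be compared per kilobase of exon. In WT libraries Serpinb1a was at 63.9 and 48.1 CPM per kilobase. Serpinh1, at 50.5 and 31.8, Serping1, at 49.7 and 32.6, and Serpinb5, at 44.3 and 35.4, overlapped each other, and the higher values of Serpinh1 and Serping1 exceeded the lower one of Serpinb1a. In Itch KO libraries Serpina3n, at 64.8 and 72.5 CPM per kilobase, and Serpinb1a, at 72.3 and 54.2, overlapped. Serpinh1, at 48.4 and 66.2, overlapped both of these, and Serping1, at 49.4 and 61.6, overlapped Serpinb1a. Serpina3g, at 47.5 and 57.5 CPM per kilobase in Itch KO libraries and 9.63 and 6.35 in WT libraries, reached the range of Serping1 and Serpinh1 in the Itch KO libraries only. Serpina3n, Serpinb1a, Serpinb5, Serping1 and Serpinh1 belong to the decile of tested genes with the most counts per kilobase. In that decile the log2 fold changes of all genes had an interquartile range of 0.31, against 1.58 in the sparsest decile, and the fold changes of these 5 members stand beside that narrow range.

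The proteases that serpins inhibit were read from lists. None of their members passed edgeR's adjusted threshold, and the counts that follow are DESeq2 calls at an adjusted p below 0.05 among tested members, against a background of 5.24% higher and 4.76% lower. Of the 10 granzyme and perforin genes 8 were called higher and 0 lower. Their median log2 fold change was 4.22, or 3.74 with the 3 genes at 0 in both WT libraries set against a floor of 3 counts per library. Gzmd, Gzme, Gzmf, Gzmg and Gzmk passed the filter through the Itch KO libraries alone, so the filter partly fixed their direction. Among the 8 was Gzmb, the target of the Serpinb9 and Serpina3n products, at 43.1 and 70.1 CPM in Itch KO libraries, against 7.89 and 4.32 CPM in WT libraries. Of the 8 mast cell chymases and tryptases 5 were called higher and 0 lower (median 3.02), and Mcpt1, a chymase of mucosal mast cells, was at 107 and 86.0 CPM, against 6.51 and 11.6 CPM. Mcpt9, among those called, passed the filter through the Itch KO libraries alone. Of the neutrophil serine proteases only Prtn3 was tested, at 3.69 and 8.99 CPM, against 0.107 and 0.978 CPM, and Elane, the neutrophil elastase gene, had at most 1.76 CPM in any library. Prtn3 also passed the filter through the Itch KO libraries alone.

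In the plasminogen system 1 of 4 tested genes was called, Plaur, the urokinase receptor gene, at 79.4 and 109 CPM in Itch KO libraries, against 33.6 and 21.3 CPM in WT libraries, while Plat overlapped at 51.1 and 79.4 CPM, against 57.0 and 30.2 CPM. In the clotting list 2 of 9 were called higher, F10 and F7, which encode coagulation factors. F10 was at 34.5 and 115 CPM in Itch KO libraries, against 2.35 and 1.14 CPM in WT libraries, and F7 was at 8.85 and 26.3 CPM, against 0.427 and 0.896 CPM. F7 passed the filter through the Itch KO libraries alone, which partly fixed its direction. F2, the prothrombin gene, was at or below 7.74 CPM in every library. None of the 9 epithelial membrane serine proteases was called (median -0.01), nor any of the 3 complement proteases tested (median 0.62), the 8 cysteine cathepsins (median 0.30) or the 10 collagen genes (median 0.29).

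Of the 20 tested inhibitors outside the serpin family, DESeq2 called 3 higher and 0 lower (median log2 fold change 0.22). A2m, which encodes the broad protease trap alpha-2-macroglobulin, was at 7.99 and 62.3 CPM in Itch KO libraries, against 0.213 and 0.0815 CPM in WT libraries. A2m and Stfa2, among the genes called, passed the filter through the Itch KO libraries alone, which partly fixed their direction. The most abundant member, Spint1, an epithelial inhibitor of matriptase, overlapped at 188 and 144 CPM, against 185 and 158 CPM.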

How the data were processed

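Libraries were grouped by title and genotype, 2 Itch KO and 2 WT. The deposited values are raw read counts. Tools listed in the submitters' processing notes are TopHat2, HTSeq 0.6.1, SAMtools 0.1.19 and CASAVA 1.8.2, and builds are mm10 and GRCm38. Strand setting and the handling of multiply mapped reads are stated by no label or file header used here. WT replicate 1 lists 19308 genes and the other files 39179; the 19308 hold 97.3% to 97.7% of the counts of the longer files. In the longer files, reads outside genes (18.2% to 23.0%) and ambiguous reads (2.67% to 3.03%) were left out. The file of WT replicate 1 does not give these numbers.

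CPM used TMM factors. The test was edgeR 4.0.16 (quasi-likelihood, robust, R 4.3.3) on 16956 genes, two-sided, with Benjamini-Hochberg adjustment at 0.05; the standard error is the log2 fold change over the square root of F. DESeq2 1.42.0 and limma 3.58.1 were alternatives. edgeR estimated a common biological coefficient of variation of 34.8%, on 2 residual degrees of freedom. Scripts were tested on simulated data. Positions and exonic lengths came from GENCODE M21 (GRCm38), windows from RefSeq (GRCm38.p6). Every tested member is described except 1, which is not reported here; of other lists, the 3 most abundant genes or those with an edgeR p under 0.01 could be named, and other genes were chosen after their values were seen. Members and lists were chosen with earlier results of these data known.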

Additional observations from a re-analysis of the deposited data

Results flagged for a closer look

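The 3 longer count files list 19 further serpin genes and pseudogenes that the file of WT replicate 1 does not hold, so they entered no comparison. Of these, 13 had 0 counts in all 3 libraries and 3 had a single count. The remaining 3, all on chromosome 12, showed a signal in both Itch KO libraries above that in WT replicate 2, the one WT library in which they were counted. Serpina3h, a transcribed pseudogene beside Serpina3g, had 25 and 81 counts in Itch KO libraries, against 3 in WT replicate 2, with a mean of 5.72 CPM in Itch KO libraries. Serpina3e-ps had 4 and 23 counts, against 1 (mean 1.43 CPM in Itch KO libraries), and Serpina1c, an antitrypsin gene, had 8 and 15 counts, against 3 (mean 1.27 CPM). With 1 WT library there was no test, and reads of related genes may be divided among them: of the 50-base stretches of Serpina1a 49.3% also occur in Serpina1c, and of those of Serpina3i 9.82% also occur in Serpina3h.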

How the results depend on the processing

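edgeR called 0 members and 0 genes under RLE or upper quartile normalization, either other filter, robust=FALSE, the replicate block and each library left out (lowest and highest count 0), and limma voom also called 0; DESeq2 called 9 members and 1696 genes. DESeq2's 9 members ran from 2 to 10 when a library was left out, with the 2 without Itch KO replicate 2, and were 8 with the replicate block. Members with both Itch KO libraries above both WT libraries numbered 16, and those with both below numbered 2. These counts were 11 and 1 when a mean of 5 CPM or more was required, and 22 and 6 with no filter. Itch KO replicate 1 against WT replicate 2 alone, an alternative added after seeing the data, gave 23 and 6. With 1 library on each side any difference counts as a separation, so the 23 and 6 cannot be set beside the other counts. No share of all genes is given for these alternatives. Fold changes near 0 or resting on 1 library turned sign. Serpinb2 (-0.53) was 1.799 in limma voom and 0.86 with the replicate block, and Serpinb5 (0.03) was -0.0030 under RLE normalization and in DESeq2 and -1.8e-05 in limma voom. With a library left out the log2 fold change ran from -1.77 to 1.60 for Serpina3c, from -3.13 to 6.73 for Serpinb2, from -1.20 to 0.76 for Serpinb8, from -0.33 to 1.26 for Serpinf1, from -0.065 to 0.92 for Serpini1, from -0.10 to 0.32 for Serpine3, from -0.29 to 0.30 for Serpinb5, from -0.046 to 0.41 for Serpinb1a and from -0.037 to 0.25 for Serpinb6a. The other tested members kept their direction in the alternatives run. Apart from what leaving out a library shows, the cause was not tested. Equal replicate numbers did not deviate together (r = 0.05 across 16956 genes, which are not independent replicates), so the block is not used as a pairing. WT counts of 1 or 2 limit Serpina1d and Serpina1e.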

Other observations

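Libraries of 1 group differed in a common direction over the tested members. In Itch KO mucosa 22 of the 29 were higher in replicate 2 than in replicate 1 (45.5% of all tested genes), and in WT mucosa 20 of the 29 were higher in replicate 1 than in replicate 2 (49.5% of all tested genes). In Itch KO replicate 1, the library without acinar markers, 19 of the 29 stood above both WT libraries, and in Itch KO replicate 2 it was 21 of the 29, where 41.0% of all tested genes did so in either library.

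Some values sat apart from their relatives in clade and position. Serpina3j was listed at 66 counts in WT replicate 1 and at most 1 elsewhere, while its neighbours Serpina3i and Serpina3m were highest in Itch KO libraries. Serpina9, lower in Itch KO libraries, lies between Serpina11 and Serpina12, which had more counts in both Itch KO libraries than in either WT library.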
